A study of Mus musculus with 7 samples.

Results

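The sites described here are CTCF peaks that share at least 1 bp with a peak of Smc1 in mouse neural progenitor cells (NPCs), called shared sites below. The autosomes, chromosomes 1 to 19, held 41909 CTCF peaks, and 28344 of them met this rule. That is 67.6% (95% Wilson interval 67.2 to 68.1). The other 13565 CTCF peaks overlapped no Smc1 peak and are called CTCF sites without Smc1. The name means that no Smc1 peak was called there. Smc1 signal too weak to be called as a peak was not analysed here. With the sex chromosomes, the deposited lists held 42893 CTCF peaks and 37991 Smc1 peaks, 80884 in all.

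CTCF is a zinc finger protein that binds a long DNA motif, and cohesin is a ring-shaped complex that can hold separate stretches of DNA together. Smc1 is a core subunit of the ring. In the loop extrusion model, cohesin reels in chromatin and is held up at bound CTCF, which places cohesin at many CTCF sites and makes such sites the anchors of chromatin loops. Pairs of CTCF sites at loop anchors mostly carry motifs that point toward each other.

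The NPCs were derived from V6.5, a male mouse embryonic stem (ES) cell line of mixed 129SvJae and C57BL/6 background, with no genetic change or drug named in the labels. They were made through embryoid bodies over 4 days without LIF, 5 to 7 days of serum-free selection and 2 to 4 days of growth with Fgf2, and were fixed in 1% formaldehyde. Chromatin immunoprecipitation with sequencing (ChIP-seq) used about 10 µg of antibody, with 1 library for CTCF and 1 for Smc1. No replicate of either exists among the samples used, so every difference below is a description of these libraries with no test, and no peak count stands for a replicate of the cells. Intervals of shares, densities and medians cover counting error only. The depth of both libraries is unknown. The 2 antibodies had different wash steps per the labels' protocols. The labelled input library and the 5C libraries of ES cells and NPCs were not used here, and a comparison of ES cells with NPCs was not made.

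Most Smc1 peaks lay over CTCF as well. Of 37113 autosomal Smc1 peaks, 28439 lay over a CTCF peak, which is 76.6% (76.2 to 77.1), and 8674 lay over none. A shared site usually had a single partner. It overlapped 1 Smc1 peak at 28146 sites, 2 at 196 sites and 3 at 2 sites. The sites with 3 Smc1 peaks were chr5:36740522-36742095, a CTCF peak of 1574 bp, and chr11:50415798-50417098, a CTCF peak of 1301 bp (coordinates on mm9, counted from 1). In the other direction, 28336 Smc1 peaks lay over 1 CTCF peak, 101 over 2 and 2 over 3. The Smc1 peaks over 3 CTCF peaks were chr8:83402608-83405078, which was 2471 bp wide, and chr14:26276003-26278003, which was 2001 bp wide.

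Few sites lay near the edge of the rule. Only 21 shared sites overlapped their Smc1 peak by 50 bp or less, and 22 CTCF sites without Smc1 had the edge of an Smc1 peak within 50 bp. The sites just inside had a median width of 448 bp and a median score of 154, and the sites just outside had a median width of 386 bp and a median score of 145. The score is the value the authors' peak caller gave each peak. Its values, 80 and above, fit −10 log10 of a p-value, and it is used below to order and compare peaks within a list. The settings with a minimum score, given further below, put the same cut-off on both lists. Whether the scores of the lists are on a like scale was not tested. Over all CTCF sites without Smc1, the median gap to the nearest Smc1 peak was 12.8 kb (quartiles 4.68 and 29.6 kb), and 443 of them (3.27%) had an Smc1 peak within 500 bp.

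The stronger a CTCF peak, the more often it was shared with Smc1. Shared sites had a median CTCF score of 409 (quartiles 219 and 688), against 129 (quartiles 99.5 and 187) for CTCF sites without Smc1. With all autosomal CTCF peaks cut into 10 equal classes by score, the share overlapping Smc1 was 21.9% in the lowest class, 66.4% in the fifth and 98.97% in the highest. Almost every strong CTCF peak was thus a shared site, 4145 of 4188 in the highest class. By width, the share was 39.8% in the narrowest class and 91.6% in the widest.

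**Figure D1:**
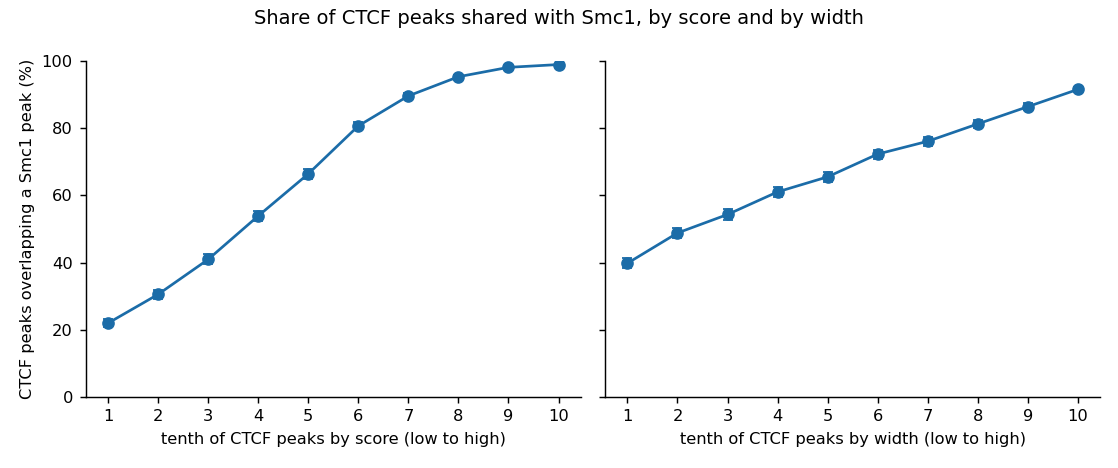
Percentage of autosomal CTCF peaks that overlap an Smc1 peak (vertical axis) in 10 classes of CTCF score (left) or CTCF peak width (right), low to high, with 95% Wilson intervals as bars. The share is 21.9% in the lowest score class and 98.97% in the highest, and 39.8% in the narrowest class and 91.6% in the widest.

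Score and width were looked at together in 5 equal classes of each. In the lowest score class the share was 21.4% for the narrowest peaks and 42.9% for the widest, of which there were 168. In the highest score class it was 99.7% for the narrowest peaks and 98.4% for the widest. In the middle score class it was 67.5% for the narrowest peaks and 75.8% for the widest. Width therefore went with sharing among weak peaks. Among the strongest, almost every peak was shared at any width, which left little room for such a relation to show. A wide peak also meets the 1 bp rule more easily than a narrow one, so width is not independent of how the sites were chosen.

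The 10 highest CTCF scores among all autosomal CTCF peaks belonged to shared sites, and no CTCF site without Smc1 scored above 1621.4. The highest was 3212.16 at chr2:39228474-39229151, a peak of 678 bp whose Smc1 peak scored 2597 and lay 16.5 bp toward lower coordinates, midpoint to midpoint. Next came chr11:62570072-62570858 with 3200.51, chr9:72378009-72378489 with 3195.51, chr4:125998692-125999411 with 3188.7 and chr13:73297521-73298356 with 3176.32. A score of exactly 3100 was given to 4 sites, which start at chr2:26502163, chr7:4378663, chr9:30287952 and chr18:75759138. The Smc1 peak at the site on chromosome 9 also scored exactly 3100. How the peak caller came to this repeated round value is not known. The order of these 4 sites, and their place among the 10, are therefore not resolved. The last of the 10, chr18:34936160-34937319 with 3089.06, had a weak Smc1 peak. Its Smc1 score was 97.33, against 607 to 3100 at the other 9 sites, and its Smc1 midpoint lay 210.5 bp toward lower coordinates. Over all 28344 shared sites, CTCF and Smc1 scores were correlated across sites of the same library pair, with a Spearman rho of 0.64.

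Shared CTCF peaks were wider than those without Smc1. Their median width was 475 bp (quartiles 393 and 560, range 152 to 1730), against 382 bp (quartiles 313 and 455) for CTCF sites without Smc1. The direction was the same on 19 of 19 autosomes. At like CTCF scores the difference was much smaller. In 5 equal classes of score, low to high, the medians were 376, 409, 444, 491 and 544 bp for shared sites and 353, 392, 431, 484.5 and 556 bp for CTCF sites without Smc1. In the highest class the shared sites were thus narrower by 12 bp, with 121 sites without Smc1 to set them against. Summed over peaks, shared sites covered 13.7 Mb and CTCF sites without Smc1 covered 5.31 Mb.

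The widest shared sites were chr8:125966159-125967888 with 1730 bp, chr17:74058403-74060115 with 1713 bp, chr18:63811972-63813658 with 1687 bp, chr11:118599074-118600751 with 1678 bp and chr1:57830716-57832384 with 1669 bp. Their CTCF scores were 764 to 1792. The Smc1 peak nearest by midpoint was 464 to 786 bp wide at 4 of the sites. It was 1545 bp wide at the site on chromosome 1, where the midpoints lay 28 bp apart. The site on chromosome 17 overlapped 2 Smc1 peaks. Its nearest was 464 bp wide, and its longest overlap, 802 bp, was with the other. The narrowest were chr18:62727792-62727943 with 152 bp, chr3:41878467-41878641 with 175 bp, chr15:39507290-39507466 with 177 bp, chr17:14223709-14223889 with 181 bp and chr2:181441482-181441663 with 182 bp. These 5 narrow sites scored 155 to 305, and none of them had another CTCF peak within 10 kb.

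The Smc1 peaks themselves were narrower than the CTCF peaks they lay on. The Smc1 partner had a median width of 417 bp, and the CTCF peak was the wider of the pair at 18984 sites (67.0%), by a median of 56 bp over all sites. The widths of the 2 peaks were correlated across sites with a rho of 0.38. The median overlap was 369 bp, which was 81.6% of the CTCF peak (quartiles 68.6 and 93.2). The Smc1 peak lay wholly inside the CTCF peak at 11611 sites (41.0%), the CTCF peak lay wholly inside the Smc1 peak at 4031 (14.2%), and each peak had an end outside the other at 12702 (44.8%). Smc1 peaks over CTCF had a median width of 416 bp and a median Smc1 score of 321, against 395.5 bp and 113 for Smc1 peaks over no CTCF peak.

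The centres of the paired peaks nearly coincided. The median distance between the CTCF midpoint and the Smc1 midpoint was 42 bp (quartiles 20 and 72.5), and relative to the largest distance at which the same peaks would still overlap it was 9.61% at the median. Midpoints lay within 25 bp at 31.2% of sites, within 50 bp at 57.5%, within 100 bp at 87.9% and within 200 bp at 98.0%. On each autosome the median lay between 40 and 44.5 bp. The width of the peaks limits how finely a midpoint places the protein, and summit positions were not used here.

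**Figure D2:**
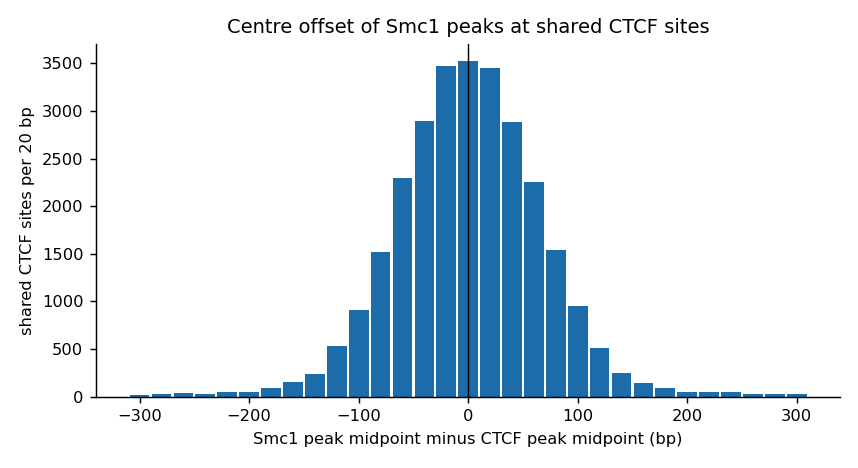
Number of shared sites (vertical axis) per 20 bp of signed distance from the CTCF midpoint to the Smc1 midpoint in bp (horizontal axis), positive toward higher coordinates. The central bar, from −10 to 10 bp, holds 3526 sites and the bars on either side of it mirror each other. The plotted range leaves out 189 sites.

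The offset pointed almost equally often to both sides along the reference strand. The Smc1 midpoint lay toward higher coordinates at 14055 sites (49.6%), toward lower coordinates at 14209 (50.1%) and at the same base at 80. The signed offset had a median of −0.5 bp, a mean of −0.19 bp and an SD of 77.5 bp over sites. More than 50% of the Smc1 midpoints lay toward higher coordinates on 7 of 19 autosomes. CTCF motifs lie on both strands, and the orientation of the motif in each peak was not analysed here, so these counts do not bear on an offset relative to the motif.

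The offset was somewhat larger at stronger and wider Smc1 peaks. In 5 equal classes of CTCF score, low to high, its median was 39, 40, 42, 43.5 and 46.5 bp. By Smc1 score the medians were 38.5, 39, 42, 42.75 and 50.5 bp, and midpoints lay within 100 bp at 91.2% of sites in the lowest class and 81.3% in the highest. By Smc1 width the medians were 36.5, 42.5, 41, 40 and 53.5 bp, and by CTCF width 34, 46, 46.5, 43 and 43 bp. The class with the widest Smc1 peaks, 517 to 3899 bp, thus stood above the other 4. Wider peaks also allow larger offsets under the overlap rule. Distance to the nearest CTCF site made little difference to it, with medians between 41 and 43 bp in 5 equal classes of that distance.

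Large offsets were rare. An offset above 500 bp was found at 36 sites. Since the peaks must overlap, such an offset can only occur where their widths sum to more than 1 kb, so a wide peak at these sites follows from the rule. An Smc1 peak wider than 1 kb lay at 28 of these 36 sites, and 10 of the 36 were on chromosome 8. The 5 largest were all on chromosome 8. At chr8:118232085-118232598 and chr8:118229575-118230048 the CTCF peaks sat near opposite ends of 1 Smc1 peak of 3474 bp, with signed offsets of −1386 and 1144 bp. The CTCF scores there were low, 93 and 142, while the Smc1 score was 1626. The others were chr8:130880875-130881502 (1264.5 bp, Smc1 peak of 3319 bp), chr8:11006845-11007514 (1074.5 bp, Smc1 peak of 3899 bp) and chr8:83402658-83403134 (947 bp, Smc1 peak of 2471 bp). In each of the 5 cases the whole CTCF peak lay inside the Smc1 peak.

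Neighbouring shared sites lay a median of 33.9 kb apart, midpoint to midpoint (quartiles 10.6 and 86.4 kb, 28325 intervals). The median was 64.2 kb (quartiles 22.1 and 170 kb) between neighbouring CTCF sites without Smc1, which were fewer. Distances ranged from 0.309 kb to 7.75 Mb. Their mean was 84.9 kb with an SD of 192 kb, a coefficient of variation of 2.26, against 2.12 for CTCF sites without Smc1. The spacing was therefore uneven in both classes. The next shared site lay within 1 kb for 2.19% of intervals, within 10 kb for 24.1%, within 100 kb for 78.4% and within 1 Mb for 99.3%.

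**Figure D3:**
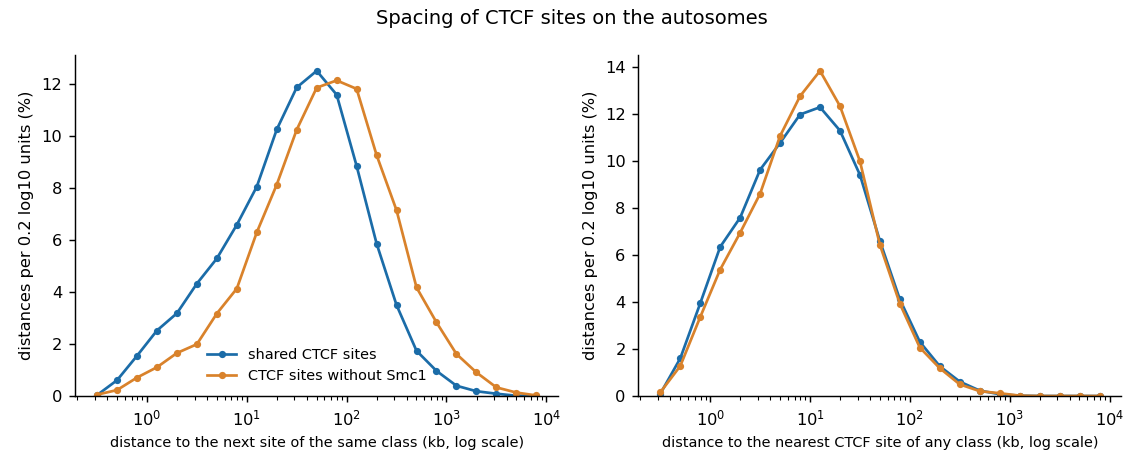
Percentage of distances (vertical axis) per 0.2 log10 units of distance in kb (horizontal axis, log scale), for shared CTCF sites and for CTCF sites without Smc1. Left, distance to the next site of the same class, with medians of 33.9 and 64.2 kb. Right, distance to the nearest CTCF site of any class, where the curves lie close together with medians of 9.35 and 10.2 kb.

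Measured to the nearest CTCF site of any class, which does not depend on the size of the class, shared sites were slightly closer to a neighbour. The median was 9.35 kb (quartiles 3.32 and 24.6 kb) for shared sites and 10.2 kb (quartiles 3.86 and 24.4 kb) for CTCF sites without Smc1, and it was shorter for shared sites on 18 of 19 autosomes, the exception being chromosome 16. Within the 5 classes of CTCF score the order turned round. Low to high, the medians were 12.2, 11.9, 10.4, 9.21 and 7.77 kb for shared sites and 11.3, 10.3, 8.94, 7.04 and 5.71 kb for CTCF sites without Smc1. At like score the shared sites were thus the more distant ones in 5 of 5 classes, and in both classes high-scoring sites had nearer neighbours.

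A shared site had another shared site as its nearest CTCF neighbour somewhat more often than a site without Smc1 did. The share was 70.8% (70.2 to 71.3) for shared sites and 65.1% (64.3 to 65.9) for CTCF sites without Smc1, with the same order on 19 of 19 autosomes. The gap between the classes was widest for close neighbours. With the neighbour within 1 kb, it was a shared site for 76.1% of shared sites and 59.9% of sites without Smc1. At 1 to 5 kb the shares were 73.6% and 61.8%, at 5 to 10 kb 69.1% and 64.0%, at 10 to 50 kb 68.2% and 66.8%, and beyond 50 kb 72.0% and 70.5%. An Smc1 peak over 2 or more CTCF peaks makes all of them shared, which was so for 207 sites. The shares at close range are therefore not independent of the rule. Over all distances the classes differed by 5.70 percentage points, and by 4.56 with peaks under 1 kb apart joined. Scores of neighbouring shared sites were hardly related at any distance, with a rho of 0.03 to 0.08 in 6 distance classes. Measured from each CTCF site, the nearest Smc1 peak over no CTCF peak lay a median of 86.4 kb away for shared sites. For CTCF sites without Smc1 the median was 92.6 kb. Such a peak lay within 10 kb of 11.6% of shared sites and 9.43% of CTCF sites without Smc1.

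Very close neighbours mostly had separate Smc1 peaks. Of 620 pairs of neighbouring shared sites within 1 kb, 82 lay under a single Smc1 peak, and of 1135 pairs at 1 to 2 kb, 2 did. The 5 closest pairs were of another kind, since 4 of them lay under a single Smc1 peak. The closest were chr8:131176363-131176617 and chr8:131176687-131176911, with midpoints 309 bp apart. The pair that starts at chr6:24671420 was 323.5 bp apart and had 2 Smc1 peaks. The pairs that start at chr1:75453355, chr18:67771619 and chr7:146115487 were 342.5, 366 and 377 bp apart and had 1 Smc1 peak each. In pairs within 1 kb the Smc1 midpoint lay on the same side of both CTCF midpoints in 46.0%, and at 1 to 2 kb in 52.5%. These values cannot be compared directly. A single Smc1 peak under both sites has 1 midpoint, and where it lies between the CTCF midpoints the pair counts as opposite sides. Such pairs were mostly within 1 kb.

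Shared sites also left long stretches empty. There were 193 intervals above 1 Mb between neighbouring shared sites, and together they made up 332 Mb, or 13.8% of the 2408 Mb spanned by peaks. These intervals held 225 CTCF sites without Smc1, and 66 of the 193 held none. The longest ran from the site ending at chr7:39052472 to the site starting at chr7:46799514, 7.75 Mb between midpoints, with 1 CTCF site without Smc1 in it. The next lay between sites starting at chr7:7251978 and chr7:13490562 (6.24 Mb), chr1:25883740 and chr1:30641589 (4.76 Mb), and chr7:20541689 and chr7:24938371 (4.40 Mb). Thus 3 of the 4 longest were on chromosome 7. The other 6 of the 10 longest measured 3.12 to 3.55 Mb and lay on chromosomes 10, 11, 12, 13 and 17, with 2 on chromosome 17. The one on chromosome 11, from chr11:12711061 to chr11:16161632, held no other CTCF site and 1 Smc1 peak without CTCF. The coefficient of variation of the spacing was 3.64 on chromosome 7, the highest of the autosomes. What these stretches contain, including how much of them short reads can map to, was not analysed here.

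Clusters were defined as runs of shared sites with gaps of at most 10 kb between midpoints. There were 4965 clusters of 2 or more sites, which held 11791 sites, 41.6% of the shared sites (41.0 to 42.2). The same definition put 3196 CTCF sites without Smc1 (23.6%) in clusters of their own class, which has fewer members on the same chromosomes. Most clusters were pairs, 3598 of them. There were 996 clusters of 3 sites, 275 of 4, 75 of 5, 17 of 6, 2 of 7 and 2 of 8. The remaining 16553 shared sites had no other within 10 kb. The median cluster measured 5.24 kb between its outer midpoints.

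Sites in clusters were a little stronger and wider than sites alone. The median CTCF score was 457 in clusters of 4 or more, 443 in clusters of 2 or 3 and 386 for sites alone, and the median widths were 506, 488 and 463 bp. The Smc1 partner scored a median of 328 in clusters of 4 or more, 350 in clusters of 2 or 3 and 308 for sites alone. The median offset was 42.5 bp in both kinds of cluster and 41.5 bp for sites alone, a difference of 1 bp.

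The largest clusters held 8 sites each and both lay on chromosome 15. The cluster at chr15:102995819-103021938 spanned 26.1 kb and was strong and tightly centred. Its CTCF scores ran from 305.75 to 2270.87 with a median of 874, and its signed offsets, in order along the chromosome, were −0.5, −3.5, 28, −0.5, 10, −3, 16.5 and −1 bp. The median absolute offset there was 3.25 bp, against 42 bp over all shared sites. It also held 1 CTCF site without Smc1. The cluster at chr15:98606814-98636458 spanned 29.6 kb, had CTCF scores from 156.55 to 830.04 and a median absolute offset of 63.25 bp. Both clusters therefore had the same number of sites and similar spans, with offsets below and above the median of all sites.

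There were 2 clusters of 7 sites. The one at chr3:52040500-52066729 had CTCF scores from 110.59 to 1063.58, and the one at chr2:180514129-180557664 was the longest of those described with 43.5 kb. Of the 17 clusters of 6 sites, the 6 with the shortest spans are described, which makes 10 clusters in all. The most compact was chr9:45216335-45225865, with 6 sites in 9.53 kb and neighbours 0.494 to 3.48 kb apart. The others were chr5:75539159-75553525, chr9:40558350-40573409, chr15:79906837-79921943, chr1:81297381-81316593 and chr11:77629408-77649096. The cluster near chr15:79906837 had the largest median offset of the 10, 99.25 bp, and its first site lay under an Smc1 peak of 1996 bp. No Smc1 peak without CTCF lay inside any of the 10 clusters, and 4 of the 10 held CTCF sites without Smc1, 5 in all.

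Density differed between autosomes by up to 1.86-fold. It was counted per Mb of the span from the first to the last peak of either list. Chromosome 11 was the densest with 17.8 shared sites per Mb (exact Poisson interval 17.0 to 18.5), followed by chromosome 19 with 15.2, chromosome 9 with 13.7 and chromosome 8 with 13.2. The sparsest were chromosome 12 with 9.56, chromosome 14 with 9.60 and chromosome 3 with 9.63 per Mb, whose intervals overlap. Chromosomes 13, 1, 18 and 16 had 10.1 to 10.3 per Mb, chromosomes 10, 6 and 4 had 11.2, 11.3 and 11.8, and chromosomes 5, 15, 7, 17 and 2 had 12.0 to 12.7. The median spacing ran from 25.4 kb on chromosome 11 to 43.0 kb on chromosome 13, and the share of sites in clusters from 35.5% on chromosome 16 to 49.0% on chromosome 11.

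**Figure D4:**
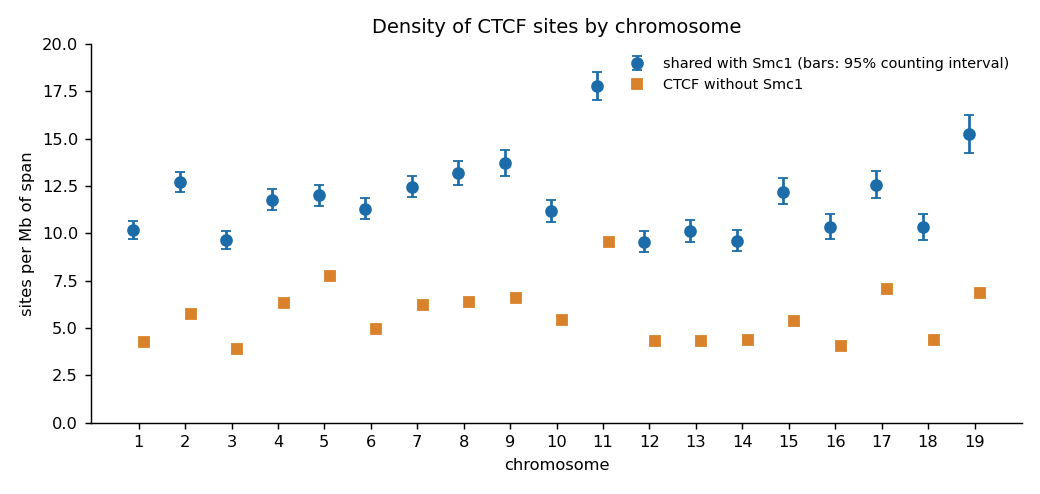
Sites per Mb of span (vertical axis) on each autosome (horizontal axis) for shared CTCF sites, with 95% exact Poisson intervals as bars, and for CTCF sites without Smc1. Chromosome 11 is the densest in both classes, with 17.8 shared sites and 9.56 sites without Smc1 per Mb.

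The classes were dense on the same chromosomes, but not in a fixed proportion. Across the 19 autosomes, the densities of shared sites and of CTCF sites without Smc1 were correlated with a Pearson r of 0.90 and a Spearman rho of 0.84, as a description of chromosomes from the same libraries. The share of CTCF sites that were shared was lowest on chromosome 5 with 60.8%, then on chromosome 17 with 64.0%, and highest on chromosome 16 with 71.9%. It was lower where CTCF peaks of either class were dense, with an r of −0.61 and a rho of −0.67. With the density of shared sites alone, r was −0.45 and rho −0.50. The same peaks enter the share and the density, here and in the bins below, so share and density are not independent. Bins pooled over all autosomes showed a lower share in the denser classes, while the classes with up to 10 CTCF peaks were close to each other. In 1 Mb bins with 1 to 5 CTCF peaks 73.4% of them were shared, in bins with 6 to 10 it was 74.1%, with 11 to 20 it was 71.4%, with 21 to 30 it was 67.5%, and with 31 to 83 it was 63.8%. Within each chromosome, the share in bins with more than 20 CTCF peaks was lower than in its other bins on 19 of 19 autosomes. On chromosome 5 it was 57.8% in the dense bins and 70.9% in the others, while on chromosome 14 the values were 68.6% and 68.8%.

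The number of shared sites differed widely between stretches of 1 Mb. Over 2422 bins of 1 Mb, the median was 10 shared sites (quartiles 4 and 17), the highest number was 53, and 141 bins (5.82%) held none. The 243 densest bins, each with 25 or more, held 26.7% of all shared sites. Relative to the mean per bin, 11.7 for shared sites and 5.60 for CTCF sites without Smc1, the counts varied less for shared sites, with a coefficient of variation of 0.79 against 1.04. The variance over the mean, which grows with the mean, was 7.23 and 6.03. The densest bins were chr10:80000001-81000000 with 53 shared of 83 CTCF peaks, the adjoining chr10:79000001-80000000 with 50 of 79, chr11:98000001-99000000 with 48 of 72, chr17:35000001-36000000 with 47 of 73 and chr15:78000001-79000000 with 46 of 58. Across bins, the number of shared sites had a rho of 0.80 with that of CTCF sites without Smc1 and of 0.57 with that of Smc1 peaks over no CTCF peak.

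Pooled over the autosomes, density was higher toward the end of the chromosomes with the higher coordinates. Mouse chromosomes have their centromere at the end where coordinates begin, so the higher coordinates are the end away from it. With each span cut into 10 equal parts, there were 8.83 shared sites per Mb in the first part, 10.8 in the second, 9.65 in the third, 10.99 in the fourth, 11.02 in the fifth, 11.6 in the sixth, 12.2 in the seventh, 12.3 in the eighth, 14.7 in the ninth and 15.7 in the last. The last part was denser than the first on 16 of 19 autosomes. The exceptions were chromosomes 17, 18 and 19, and on chromosome 19 the first part was the densest, with 27.4 shared sites per Mb. The last part was denser than the whole chromosome on 14 of 19 autosomes. It was the part with the most shared sites only on chromosomes 7 and 8, so the pooled rise did not hold for each chromosome. CTCF sites without Smc1 ran from 3.72 per Mb in the first part to 9.35 in the last, a steeper course, so that the shared percentage was 70.4% in the first part, 65.8% in the ninth and 62.6% in the last.

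Chromosome 8 stood apart in peak width. Its shared CTCF peaks had a median width of 530 bp (95% interval of the median 518 to 538), against 447 to 503 bp on the other 18 autosomes. CTCF sites without Smc1 had a median of 425 bp on chromosome 8 and 365 to 398 bp on the others. Smc1 peaks over CTCF had a median of 449 bp (441 to 459) on chromosome 8 and 402 to 429 bp on the others, and Smc1 peaks over no CTCF peak had 476 bp against 361 to 409.5 bp. In all 4 kinds of peak the median of chromosome 8 was thus above the range of the other autosomes. Its shared sites also had the highest median CTCF score, 470, and the part of score in the width difference was not tested. In 5 equal classes of CTCF score, low to high, the median shared width on chromosome 8 was 423, 447, 480.5, 543 and 595 bp, and the highest median of any other autosome was 394, 430, 466.5, 510 and 566 bp. Of 208 shared sites wider than 1 kb, 33 were on chromosome 8.

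**Figure D5:**
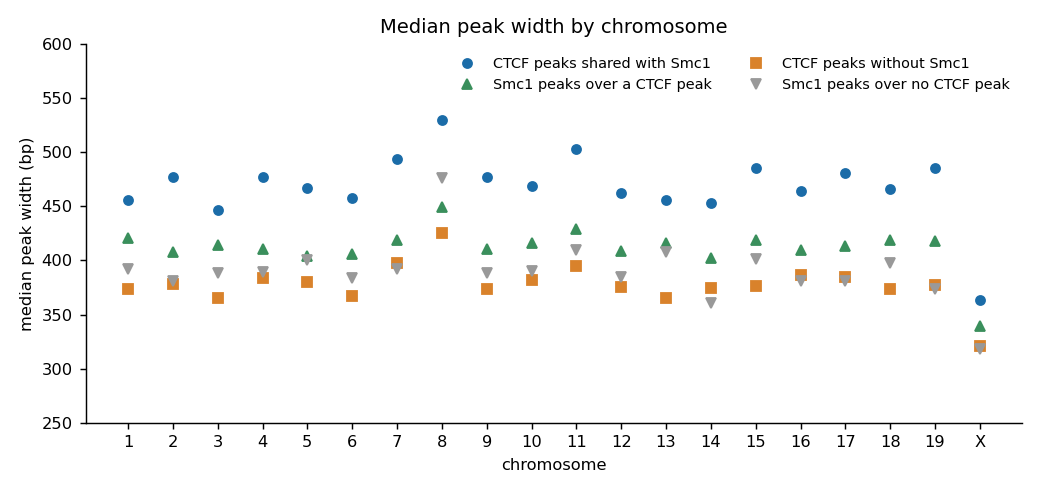
Median peak width in bp (vertical axis, starting at 250 bp) on each autosome and the X chromosome (horizontal axis) for shared CTCF peaks, CTCF peaks without Smc1, Smc1 peaks over a CTCF peak and Smc1 peaks over none. Chromosome 8 is highest in all 4 kinds, with 530, 425, 449 and 476 bp.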

How the data were processed

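ChIP-seq of NPCs gave 1 library for CTCF and 1 for Smc1. The deposited files are peak lists with a position on mm9 and a score per peak. The authors' score has values of 80 and above, which fit −10 log10 of a p-value. MACS is named in the deposited peak names, and Bowtie and mm9 per the submitters' processing notes. Whether and how the input entered the calls, and the depth of the libraries, are not given in the sources used here. The members and the values described were chosen with earlier results of these data known.

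Peaks of chromosomes 1 to 19 were intersected at 1 bp. A site's partner was the overlapping Smc1 peak nearest by midpoint, and its overlap was the longest with any one Smc1 peak. Distances are between midpoints. Shares have 95% Wilson intervals, densities exact Poisson intervals, and medians intervals from order statistics. Python 3.11.15 with numpy 2.4.6, pandas 2.3.3 and scipy 1.17.1 was used, and the overlap and spacing steps were tested on simulated peaks with known answers. Named regions are the extremes of score, width, offset, spacing, clustering, bin density and number of partners, 2 to 10 of each with ties among clusters broken by shorter span, and every autosome for density. No test between groups was made. No genome sequence or gene annotation of mm9 was used here, so no gene, motif or sequence is given. Alternatives changed the overlap rule, the score threshold, the widest peaks, the joining of close peaks, the cluster gap and the span.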

Additional observations from a re-analysis of the deposited data

How the results depend on the processing

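No paired analysis was possible because each antibody has 1 library and no result comes from a test. Of 92 recomputed values, 39 stayed within the counting interval or, for the number of shared sites, within 1.5-fold of the value above. The other 53 moved past it, and none changed direction. The search for CTCF motifs was not run, since no genome of the build was used. What limits these values is the single library of unknown depth per antibody, and the cause of each shift was not tested.

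The settings were, in order, at least 50% of the CTCF peak covered, at least 50% of both peaks covered, midpoints within 200 bp, a score of at least 100 in both lists, a score of at least 200, the widest 5% of peaks left out, and peaks under 1 kb apart joined. The number of shared sites moved with a score of at least 200, to 17365. The share of CTCF peaks shared was 64.5%, 63.6%, 66.3%, 68.8%, 69.3%, 64.1% and 68.3% in these settings. The share of Smc1 peaks over CTCF was 72.7%, 71.8%, 74.8%, 79.9%, 85.5%, 72.5% and 78.2%. The width difference, shared minus without Smc1, was 77, 78, 88, 82, 50, 77 and 102 bp, against 93 bp above. The median spacing was 36.3, 36.8, 34.9, 37.3, 55.2, 39.2 and 36.9 kb. The share of sites in clusters was 40.3%, 39.6%, 40.7%, 39.4%, 30.9%, 37.6% and 36.1%, and with gaps of 5, 20 and 50 kb it was 26.8%, 59.4% and 81.8%. The median shared width was 471 and 472 bp with 50% of CTCF or of both peaks covered, 483 and 507 bp with scores of at least 100 and 200, 463 bp without the widest peaks and 484 bp with peaks joined. It was 473 bp without chromosome 8, a setting chosen after the data were seen. The median offset was 41 bp with midpoints within 200 bp, 44 bp with scores of at least 200, 40 bp without the widest peaks and 44.5 bp with peaks joined. The score difference, 280 above, was 293 with scores of at least 100, 252 without the widest peaks and 292 with peaks joined. Chromosome 11 was the densest in every setting run. The sparsest was chromosome 12, except with scores of at least 100 or 200, where it was chromosome 14.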

Other observations

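The X chromosome was outside the rule. It held 982 CTCF peaks, of which 722 overlapped Smc1, 73.5% (70.7 to 76.2), against 60.8% to 71.9% on the autosomes. It had 4.48 shared sites and 1.61 CTCF sites without Smc1 per Mb, against lowest autosomal values of 9.56 and 3.91. Its shared CTCF peaks had a median width of 363.5 bp and a median score of 226, both below every autosome. The number of copies of each chromosome and the read depth per chromosome were not analysed here, for the X or for chromosome 8.

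Of 224 autosomal Smc1 peaks over CTCF that were wider than 1 kb, 36 were on chromosome 8. That is 2.12% of its Smc1 peaks over CTCF, against 0.267% to 1.15% on the other 18 autosomes. Its shared sites had a median CTCF score of 470, against 364 to 463 on the others, and its Smc1 peaks over CTCF had a median Smc1 score of 350, against 290 to 348. It was thus highest in score as well as in width. Chromosome 8 was not an extreme of density, of the share of CTCF sites shared, of spacing or of clustering.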
